A study of Mus musculus with 7 samples.

Results

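Solute carriers (Slc genes) are membrane proteins that move ions, nutrients, transmitters and metabolites across the plasma membrane or the membranes of organelles. In the ventricular wall they stand between the cerebrospinal fluid and the brain tissue, and the cells there, ependymal cells with motile cilia, astrocytes, neurons, endothelium and the choroid plexus, each carry their own set. Families are numbered by sequence: Slc25 holds the carriers of the inner mitochondrial membrane, Slc6 the sodium-coupled transporters for transmitters and amino acids, Slc30 and Slc39 the zinc transporters that lower and raise cytosolic zinc.

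The genes described here are the 213 solute carriers with at least 10 counts in each of 7 RNA libraries, of 331 symbols in the tables that consist of Slc, a family number, the letter a and a member number, and of 32531 symbols in all. Left out by name were 8 carriers (Slc1a2, Slc1a3, Slc2a1, Slc4a5, Slc6a13, Slc13a4, Slc22a6 and Slc47a1), of which 7 met the count rule, and 110 symbols fell under it, 17 of them at 0 in every library. The count rule asks for reads in both kinds of library, so a carrier close to 0 in either cannot be among the 213. The counts themselves thus chose the members, and each of the 213 passed the filter of the test. They fall into 45 families, grouped here by main substrate into 14 classes.

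Adult mice of the line Dcdc2a-EGFP/Rpl10a ES2575 carry a ribosomal protein, Rpl10a, fused to EGFP and driven by Dcdc2a, a gene of the doublecortin family used here to mark ependymal cells. Polysomes with the tag were pulled down from tissue dissected around the brain ventricles (IP, libraries 1, 3 and 4), and total RNA of such tissue was sequenced beside them (Input, libraries 1 to 4). All libraries come from this line, so the tag is present in the Input tissue too, and an IP numbered 2 was not analysed here. Pull-downs can also carry RNA of cells without the tag, and these libraries hold no pull-down from untagged mice. Nothing in the labels says that the libraries come from separate animals, so p-values measure the spread between libraries, which may be technical. In bulk RNA, fewer cells of a type and less RNA per cell cannot be told apart.

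Counts assigned to genes came to between 42422439 and 52175180 in IP and between 37203427 and 44754345 in Input, so that 3 counts correspond to at most 0.0819 CPM (counts set against 1000000 counts of the library after TMM scaling). The ependymal label held in part. Of 12 ependymal markers (Foxj1, Ccdc153, Tmem212 and others) 11 were called higher in IP, and their summed level was 230 CPM in IP 1, 3032 in IP 3 and 2579 in IP 4, against 33.3 to 53.5 CPM in Input. IP 1 therefore stood apart from the other IP libraries. For the carriers among the 213 whose levels are given, calls that change when it is left out are stated. Markers of other cells also moved: meningeal fibroblast markers summed to 350, 2678 and 1471 CPM in IP 1, IP 3 and IP 4 against 237 to 501 CPM in Input (7 of 10 called higher), and mural cell markers to 65.3, 850 and 362 CPM against 32.2 to 53.0 CPM (3 of 10 called higher). Astrocyte markers (2 of 10 called higher) ran to 2200, 3176 and 3490 CPM in IP against 2999 to 3229 CPM in Input. Much of this sum was Slc1a2, with 1040, 1466 and 1808 CPM in IP against 2099 to 2322 CPM in Input. The median log2 fold change of the 10 astrocyte markers was 0.74. Neuron markers ran to 9284, 8849 and 7657 CPM in IP against 10212 to 13124 CPM in Input, with none called. Oligodendrocyte markers summed to 2763, 3626 and 4505 CPM in IP against 4509 to 6132 CPM in Input (2 of 10 called lower, Mbp and Mobp), and endothelium markers to 64.5, 193 and 207 CPM against 43.1 to 69.2 CPM (2 of 10 called higher, Cdh5 and Slc2a1). Slc2a1 alone made up 55.3, 170 and 189 CPM of the endothelium sum in IP and 28.8 to 56.7 CPM in Input. The median log2 fold change of the 10 endothelium markers was -0.07. Choroid plexus markers summed to 2164, 4591 and 5102 CPM in IP against 2880 to 5289 CPM in Input (1 of 10 called higher). Microglia markers summed to 95.4, 111 and 180 CPM in IP against 95.2 to 150 CPM in Input, with none called. No defining marker of the neuron, astrocyte or oligodendrocyte lists was at 0 in any library.

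Few solute carriers were called different between tagged-ribosome RNA and the Input RNA. The 213 genes together made up 12769, 12622 and 13314 CPM in IP 1, IP 3 and IP 4 and 13803, 13751, 13591 and 13534 CPM in Inputs 1 to 4, which is 1.26% to 1.33% of the counts in IP and 1.35% to 1.38% in Input. With edgeR's quasi-likelihood test and an adjusted p under 0.05, 5 of the 213 were called higher in IP (Slc14a2, Slc13a3, Slc25a18, Slc44a2 and Slc27a1) and 3 lower (Slc8a1, Slc38a9 and Slc25a44), or 3.76% in either direction. Among all 17375 genes tested, 3.64% were called higher and 2.16% lower, 5.81% in all. Among the genes with at least 10 counts in every library the shares were 3.63%, 2.51% and 6.14%. The share of solute carriers called lies near or below these backgrounds and is not a property of the group. The median log2 fold change of the carriers was -0.02, with quartiles of -0.37 and 0.36, beside a median of 0.06 and quartiles of -0.44 and 0.59 over all genes tested. For 187 carriers the log2 fold lay within 1 of 0, and for 79 the whole 95% interval did.

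**Figure D1:**
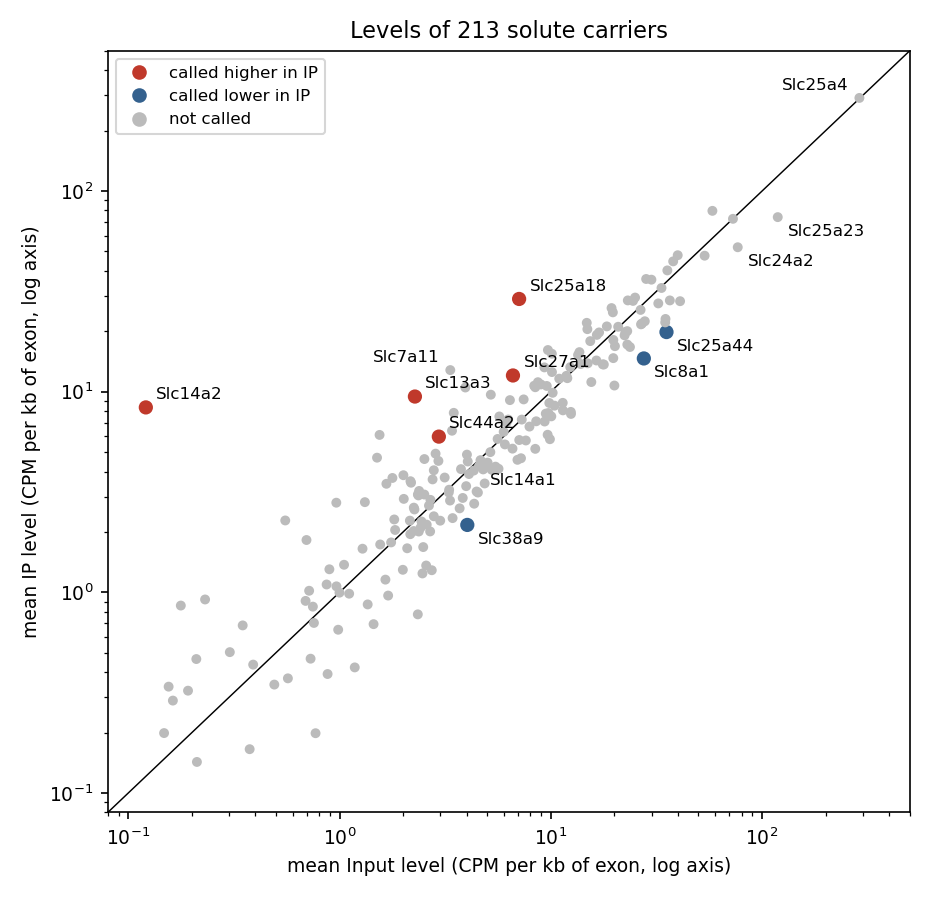
Mean level of each of the 213 solute carriers in IP (vertical axis) against Input (horizontal axis), in CPM per kb of exon on log axes. The line marks equal levels. Grey points are carriers not called, and the coloured ones are the 5 called higher and the 3 called lower in IP. Slc25a4 had the highest level in both, and Slc14a2 lies farthest from the line.

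The levels themselves spanned a wide range, as the plot of IP against Input levels shows. Counted per kb of exon, the median carrier had a level of 4.75 CPM per kb over all libraries. The highest was Slc25a4, the mitochondrial ADP/ATP carrier of heart, muscle and brain, with 291 ± 27.5 CPM per kb in IP (SD, n = 3) and 289 ± 24.5 CPM per kb in Input (SD, n = 4). It was followed in Input by Slc25a23, a calcium-regulated ATP-Mg/phosphate carrier, at 74.1 ± 39.2 CPM per kb in IP and 119 ± 5.15 CPM per kb in Input. Reads from near-identical copies and processed pseudogenes of the ADP/ATP carriers Slc25a4 and Slc25a5 were not counted to genes where they aligned to more than 1 place, so their levels are uncertain. Reads of any origin that aligned to more than 1 place made up 19.8%, 29.6% and 39.3% of the counts in all lines in IP 1, IP 3 and IP 4. In Input they made up 20.9% to 21.2%. Reads that fell on more than 1 gene and were not counted made up 1.51% to 2.01% of the counts in all lines in IP and 9.33% to 12.9% in Input, with no overlap. Their part in the values of the 65 carriers that share exon bases with other gene models was not tested.

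The carrier with the largest fold was Slc14a2 (ENSMUSG00000024552.16, on chromosome 18), urea transporter A, known from the kidney for passive urea movement. It had 1.92, 54.2 and 73.3 CPM in IP 1, IP 3 and IP 4, against 0.417, 0.447, 0.928 and 0.712 CPM in Inputs 1 to 4. All 3 IP libraries lay above all Input libraries, but IP 1 lay far below the other pair, as it did for the ependymal markers. The log2 fold change was 6.11 with an SE of 1.02 (edgeR adjusted p = 0.0171), a 68.9-fold difference. Its size depended on the libraries and the model, with log2 fold changes of 6.67 without IP 1, 5.49 without IP 4, 5.12 with the replicate number as a block and 5.03 with limma-voom. The log2 ratio to the Input of the same number and sequencing lane was 2.20, 5.87 and 6.69 in numbers 1, 3 and 4. Its relative Slc14a1, the urea transporter of red blood cells and astrocytes, had 9.77, 14.01 and 27.4 CPM in IP against 16.4, 15.2, 20.2 and 21.2 CPM in Input, and its log2 fold change of -0.10 ± 0.38 missed the threshold (edgeR adjusted p = 0.913).

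Slc13a3 (ENSMUSG00000018459.15, chr2:165405028-165473230, minus strand), a sodium-coupled carrier of succinate and other dicarboxylates, had 19.9, 79.5 and 48.6 CPM in the IP libraries, against 8.44, 16.3, 15.3 and 7.39 CPM in the Input libraries. The lowest IP library, IP 1, was still above the highest Input. The log2 fold change was 2.06 with an SE of 0.46 (edgeR adjusted p = 0.0341). Its relative Slc13a5, the plasma membrane citrate carrier, had 3.88, 6.52 and 14.04 CPM in IP against 5.52, 5.77, 7.56 and 6.53 CPM in Input, with overlapping groups (log2 fold change 0.36 ± 0.49, edgeR adjusted p = 0.727).

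Slc25a18 (ENSMUSG00000004902.7, chr6:120773578-120794336, plus strand), a mitochondrial glutamate carrier found in astrocytes, had 21.8, 71.5 and 72.8 CPM in IP, against 13.9, 19.3, 10.9 and 9.997 CPM in Input. IP 1 lay just above the highest Input and the other IP libraries well above it. The log2 fold change was 2.03 with an SE of 0.42 (edgeR adjusted p = 0.0258). The second mitochondrial glutamate carrier, Slc25a22, had 111, 61.9 and 109.6 CPM in IP against 76.2, 99.3, 78.7 and 73.2 CPM in Input and was not called (log2 fold change 0.20 ± 0.25). Over 32 bases, exons of Slc25a18 overlap Atp6v1e1 on the other strand. For Slc14a2, Slc13a3 and Slc25a18, IP 1 was the lowest IP library. The same held for the summed markers of every cell type listed above except neurons, ependymal cells and astrocytes included. The part of these cells in the differences was not tested.

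The remaining called-higher carriers both handle lipids or their head groups, and in neither was IP 1 the lowest IP library. Slc44a2 (ENSMUSG00000057193.8, chr9:21320698-21355028, plus strand), choline transporter-like protein 2, had 56.9, 40.2 and 58.4 CPM in IP against 27.6, 19.1, 27.7 and 28.0 CPM in Input. The log2 fold change was 1.02 with an SE of 0.25 (edgeR adjusted p = 0.0428), and Input 2 lay below the other Input libraries. Slc27a1 (ENSMUSG00000031808.7, chr8:71568882-71587302, plus strand), a fatty acid transport protein that also activates fatty acids to acyl-CoA, had 80.9, 64.6 and 65.3 CPM in IP against 43.7, 39.7, 35.4 and 35.7 CPM in Input. Its groups were far apart for their spread, with log2 ratios of 0.89, 0.87 and 0.87 to the Input of the same number, and a log2 fold change of 0.86 with an SE of 0.21 (edgeR adjusted p = 0.0396).

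The 3 carriers called lower differed by log2 fold changes between -0.91 and -0.83, with IP and Input apart in each. Slc8a1 (ENSMUSG00000054640.15, chr17:81373105-81738377, minus strand), the sodium/calcium exchanger NCX1 that clears calcium from the cytosol, had 306, 277 and 244 CPM in IP against 551, 549, 497 and 477 CPM in Input. Every IP library was well below every Input, with a log2 fold change of -0.91 with an SE of 0.17 (edgeR adjusted p = 0.0198). Slc38a9 (ENSMUSG00000047789.5, chr13:112660751-112738749, plus strand), the lysosomal arginine sensor upstream of mTORC1, had 37.2, 37.8 and 33.6 CPM in IP against 75.3, 69.0, 63.0 and 61.6 CPM in Input. Its log2 fold was -0.89 with an SE of 0.20 (edgeR adjusted p = 0.0345), again with no overlap between the groups. Slc25a44 (ENSMUSG00000050144.13, chr3:88410498-88425139, minus strand), a mitochondrial carrier of branched-chain amino acids, had 88.7, 63.7 and 60.3 CPM in IP against 124, 138, 122 and 121 CPM in Input. IP 1 lay nearest to the Input range here, and the log2 fold change was -0.83 with an SE of 0.20 (edgeR adjusted p = 0.0417). Exons of Slc8a1 and Slc38a9 share 304 and 182 bases with other gene models. The summed neuron and oligodendrocyte markers also lay below every Input in each IP library, and their part in these 3 differences was not tested.

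**Figure D2:**
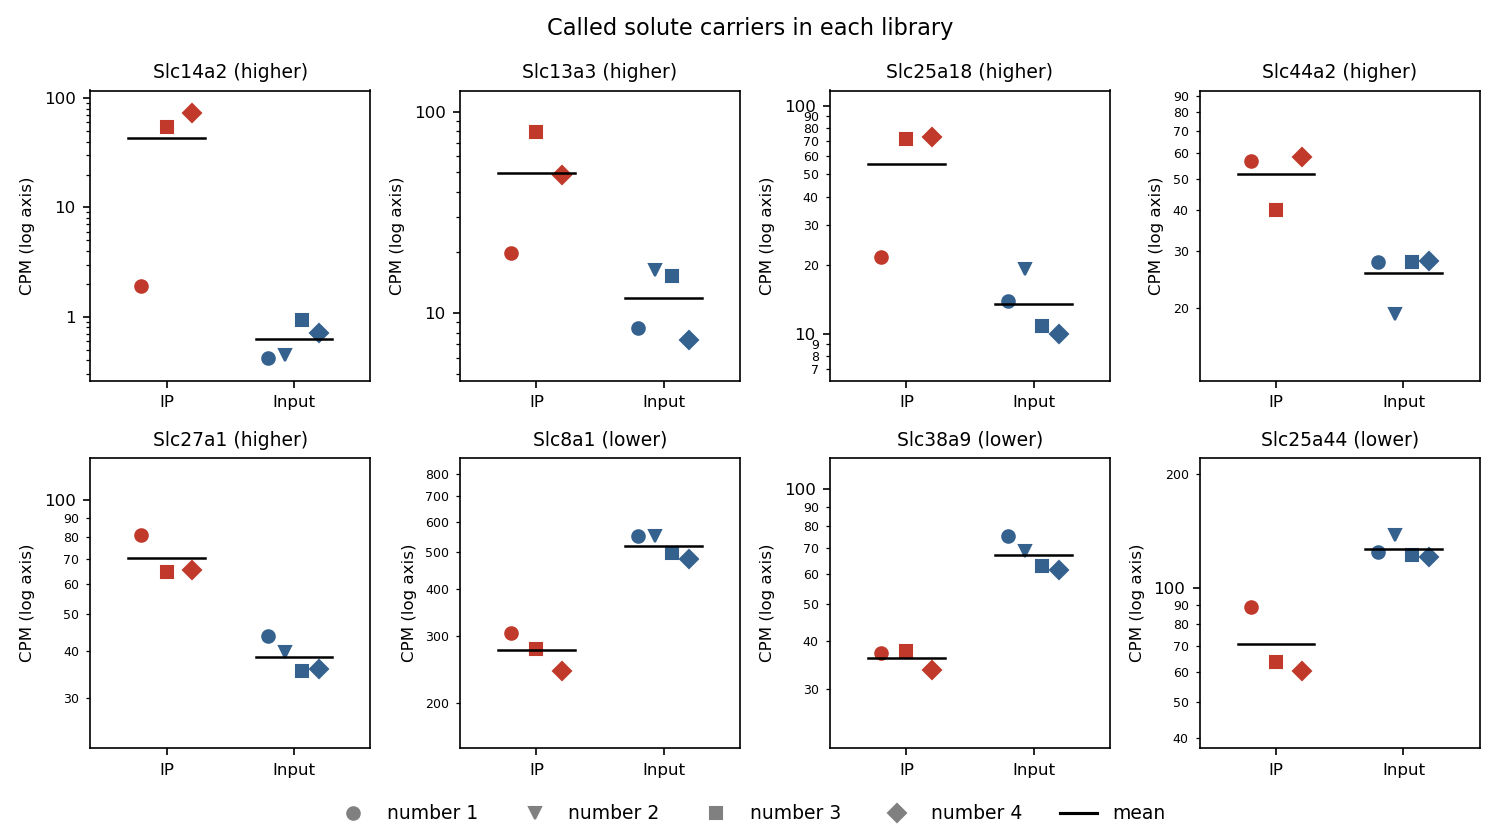
CPM on log axes of the 8 called solute carriers, in IP (red, left) and Input (blue, right). Each point is 1 library, its shape gives the library number, and lines are group means. In all 8 panels the groups do not overlap. IP 1 (circle) is the lowest IP point for Slc14a2, Slc13a3 and Slc25a18 and the highest for Slc27a1, Slc8a1 and Slc25a44.

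How firmly these calls stand depends on the libraries used. With the replicate number as a block, fitted over the 6 libraries of numbers 1, 3 and 4, none of the 213 was called and the edgeR adjusted p of the 8 ran between 0.0725 (Slc13a3) and 0.206 (Slc44a2), while 0.54% of the genes in that fit were called higher and 0.17% lower, or 0.71% in all. None was called either without IP 4 or without any 1 of the 4 Inputs, and without IP 3 only Slc14a2, Slc44a2 and Slc8a1 were. The share of all genes called in these fits is not given here, so these counts are not read as a property of the carriers. Without IP 1 all 8 stayed called and 26 carriers were called higher (12.2%) and 20 lower (9.39%), beside 12.5% and 9.55% (22.1% in all) of the genes in that fit. DESeq2 called all 8, with 14 higher and 7 lower in all, beside 8.14% and 5.61% (13.8% in all) of the genes with an adjusted p in DESeq2. Limma-voom called only Slc8a1, beside 0.357% of all genes higher and 0.984% lower (1.34% in all).

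Sequence is shown for 5 of the called carriers, to let their promoters be compared for the motifs of the ciliary regulators: GTTGCC, a half-site bound by RFX factors, and TGTTTAC, a core bound by forkhead factors such as Foxj1. Both were searched on both strands, where they read GGCAAC and GTAAACA. Of the other called carriers, Slc25a18 had a window without a match that is not shown. No window is given for Slc14a2, which had the largest fold, or for Slc25a44. Each line gives the 250 bases before the RefSeq transcription start nearest to the annotated gene start, 5′ to 3′ on the gene's strand, from RefSeq with build GRCm38.p6, with matches to either motif in capitals. For Slc13a3, Slc44a2 and Slc38a9 the last 33, 21 and 15 bases of the window lie inside the annotated gene, whose start is upstream of the RefSeq start. The windows lie at chr2:165473198-165473447 (Slc13a3, minus strand), chr9:21320469-21320718 (Slc44a2, plus strand), chr8:71568621-71568870 (Slc27a1, plus strand), chr17:81738388-81738637 (Slc8a1, minus strand) and chr13:112660516-112660765 (Slc38a9, plus strand).
Slc13a3: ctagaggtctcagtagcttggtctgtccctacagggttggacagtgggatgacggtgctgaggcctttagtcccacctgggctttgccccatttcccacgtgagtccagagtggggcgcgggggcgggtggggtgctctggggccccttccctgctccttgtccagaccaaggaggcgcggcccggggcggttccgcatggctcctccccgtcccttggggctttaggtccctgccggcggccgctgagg
Slc44a2: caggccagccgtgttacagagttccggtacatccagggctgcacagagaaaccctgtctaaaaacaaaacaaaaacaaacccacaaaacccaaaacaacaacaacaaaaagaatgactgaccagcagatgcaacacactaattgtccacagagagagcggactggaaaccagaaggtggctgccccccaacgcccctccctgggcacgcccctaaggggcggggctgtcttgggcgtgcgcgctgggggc
Slc27a1: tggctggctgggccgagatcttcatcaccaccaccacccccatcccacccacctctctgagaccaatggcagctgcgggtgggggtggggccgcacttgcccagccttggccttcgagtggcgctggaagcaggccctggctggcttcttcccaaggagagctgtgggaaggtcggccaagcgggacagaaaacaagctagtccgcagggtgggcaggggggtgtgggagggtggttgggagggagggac
Slc8a1: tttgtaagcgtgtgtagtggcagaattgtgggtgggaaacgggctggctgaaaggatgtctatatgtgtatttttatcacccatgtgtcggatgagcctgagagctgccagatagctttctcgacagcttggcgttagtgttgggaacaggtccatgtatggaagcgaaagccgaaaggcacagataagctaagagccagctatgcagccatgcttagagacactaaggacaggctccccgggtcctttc
Slc38a9: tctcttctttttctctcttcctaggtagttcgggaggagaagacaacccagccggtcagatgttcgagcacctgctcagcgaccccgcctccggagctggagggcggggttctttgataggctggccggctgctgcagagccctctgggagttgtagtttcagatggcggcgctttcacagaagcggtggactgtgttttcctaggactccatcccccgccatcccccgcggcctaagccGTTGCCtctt
The only match in these 5 windows was GTTGCC near the start of Slc38a9, a carrier called lower in IP. It lies in the last 15 bases of the window, thus inside the annotated gene. GTTGCC was found, on either strand, in 10.4% of the 32851 promoter windows of this length and in 12.8% of the 218 windows of the 166 solute carriers that had one, and TGTTTAC in 3.17% and 1.83%. The 2 motifs do not overlap in sequence, and a window without a match says only that these letters are not in it. GC content was 67.6% for Slc13a3, 66.4% for Slc27a1, 60.0% for Slc38a9, 55.6% for Slc44a2 and 50.4% for Slc8a1.

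Grouped by substrate, the calls fell in 6 of the 14 classes, with no class holding more than 2. The largest class, the 39 mitochondrial carriers, had a median log2 fold change of 0.01, with 20 carriers above 0 and 19 below, and Slc25a18 and Slc25a44 as its calls in opposite directions. The 35 carriers of amino acids and plasma membrane neurotransmitters had a median of 0.10 and 1 call, Slc38a9. The 14 carriers of organic ions, urea, bile acids and peptides had a median of 0.05 and 1 call, Slc14a2, and the 12 carriers of monocarboxylates, dicarboxylates and thyroid hormones a median of 0.38 and 1 call, Slc13a3. The 9 carriers of lipids, choline and acetyl-CoA held 2 calls with a median of -0.05, and the 15 sodium/proton and sodium/calcium exchangers 1, Slc8a1, with a median of -0.02. The 8 classes without a call had medians between -0.32 for sugars and polyols and 0.18 for bicarbonate, chloride and other anions.

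**Figure D3:**
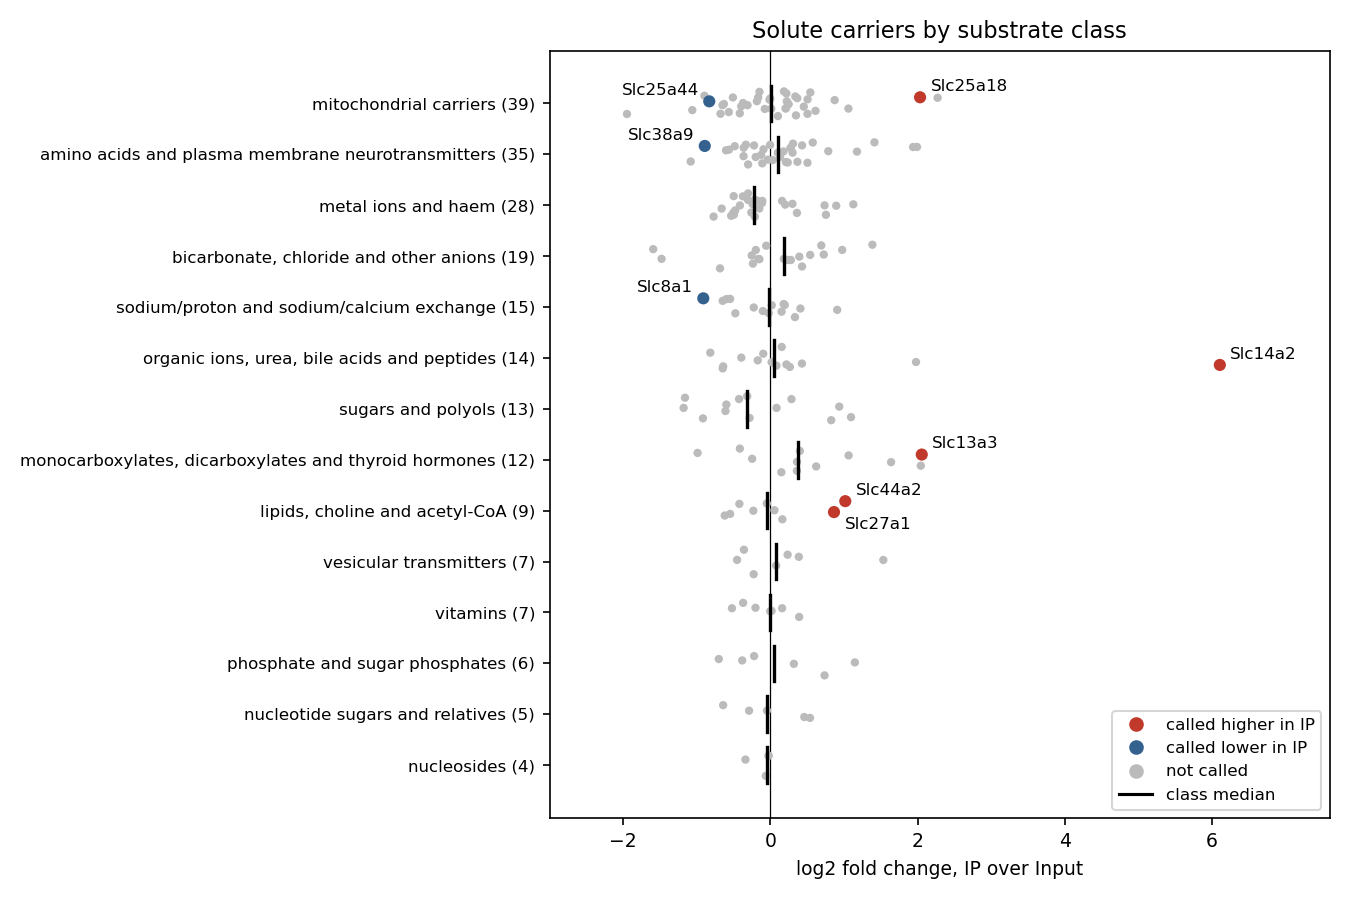
Log2 fold change, IP over Input, of each solute carrier (points) by substrate class, with the number of carriers in brackets and the class median as a vertical line. Red points were called higher and blue points lower in IP. The class medians lie between -0.32 and 0.38, and Slc14a2 at 6.11 stands far to the right of all other carriers.

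Groups did not overlap for 34 carriers, 17 with every IP above every Input and 17 with every IP below, or 7.98% each, beside 9.55% and 10.4% of all genes tested. The heat map of these carriers shows that those above came from most classes. Above were the 5 called carriers and 12 others that were not called, among them Slc7a11, the cystine/glutamate exchanger that supplies cells with cysteine, Slc18a3, the vesicular acetylcholine transporter, Slc12a4, the potassium/chloride cotransporter KCC1, and Slc25a20, which brings fatty acids as acylcarnitines into mitochondria. Below were the 3 called carriers and 14 others, among them the exchangers Slc24a2 and Slc8a3, the neuronal glucose transporter Slc2a3, the NAD+ carrier Slc25a51 and the anion exchanger Slc26a4. When IP 1 was left out, Slc25a20, Slc25a51 and Slc26a4 were called, as were Slc7a11, Slc18a3, Slc24a2 and Slc2a3 (below). At an unadjusted p under 0.05 there were 38 carriers, 20 higher and 18 lower, or 17.8%, beside 22.7% of all genes.

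**Figure D4:**
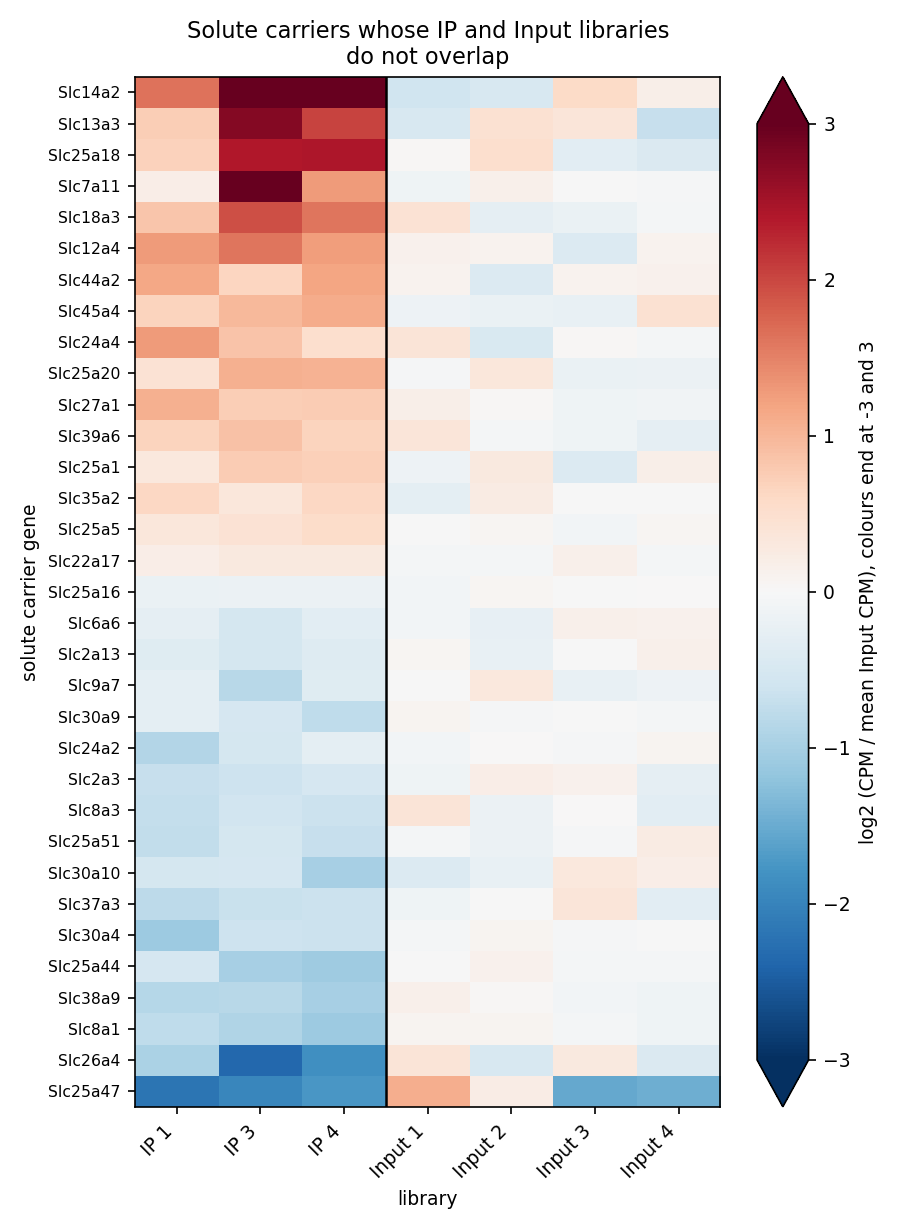
Log2 of CPM over the mean Input CPM for 33 of the 34 solute carriers whose IP and Input libraries do not overlap (rows, ordered by log2 fold), in the 3 IP and 4 Input libraries (columns). Red is above and blue below the mean Input, and colours end at -3 and 3. For Slc14a2 and Slc7a11 the IP libraries differ among themselves, and for Slc25a47 the Input libraries do.

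Among the mitochondrial carriers IP 1 differed from the other IP libraries. Their summed level was 3819, 2745 and 2777 CPM in IP 1, IP 3 and IP 4 against 3340 to 3469 CPM in Input, so that IP 1 lay above and the others below the Input range. Slc25a23 had 632, 269.8 and 275 CPM in IP against 651, 610.0, 651 and 599 CPM in Input, and the phosphate carrier Slc25a3 had 598, 295 and 316 CPM in IP against 407, 434, 386 and 389 CPM in Input. Both were chosen after their values were seen. In both, IP 1 alone was high among the IP libraries, and neither was called over all libraries (edgeR adjusted p = 0.202 and 0.996). Without IP 1, Slc25a23 was called with a log2 fold change of -1.21. The ependymal and fibroblast marker sums of IP 1, and its share of reads outside genes (18.4%, against 8.85% and 8.15% in IP 3 and IP 4 and 15.2% to 18.2% in Input), moved with this difference, and their part in it was not tested. Slc25a21, which carries 2-oxoadipate, had the class's largest fold but very low levels, with 0.380, 8.57 and 3.61 CPM in IP against 1.32, 1.48, 0.410 and 0.246 CPM in Input, and was not called (log2 fold change 2.27 ± 1.05), whereas the fit without IP 1 called it at 2.81 (edgeR adjusted p = 0.0308).

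Among the carriers of amino acids and transmitters, Slc7a11 had 53.0, 369 and 113 CPM in IP against 42.2, 52.1, 46.3 and 45.5 CPM in Input. Its groups barely failed to meet because IP 1 was close to Input 2, while IP 3 was far above all others, and the log2 fold change of 1.94 ± 0.53 missed the threshold (edgeR adjusted p = 0.0671). Without IP 1 it was called (edgeR adjusted p = 0.00088). Slc38a3, a glutamine transporter of astrocytes, had 15.2, 64.9 and 86.0 CPM in IP against 22.8, 19.0, 23.1 and 18.2 CPM in Input, where IP 1 lay below every Input and the other IP libraries above (log2 fold change 1.41 ± 0.46, edgeR adjusted p = 0.103). When IP 1 was left out, Slc38a3 was called at 1.86 (edgeR adjusted p = 4.65e-05). Slc38a3 was chosen after its values were seen.

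The dopamine transporter Slc6a3 and its vesicular partner Slc18a2, both chosen after their values were seen, varied between libraries within each kind. Slc6a3 had 24.3, 8.22 and 0.410 CPM in IP 1, IP 3 and IP 4 against 22.2, 20.6, 17.1 and 1.69 CPM in Inputs 1 to 4, so that the libraries numbered 4 were low in both. Slc18a2 had 39.05, 20.6 and 5.03 CPM in IP against 33.9, 37.0, 22.8 and 24.5 CPM in Input, low in IP 4 only. Neither was called (edgeR adjusted p = 0.848 and 0.687). The other vesicular transporters include Slc17a7, VGLUT1 of excitatory synapses, with the highest level per kb of its class at 187, 103 and 172 CPM in IP against 190.1, 233, 199 and 167 CPM in Input. Slc18a3 had 4.14, 8.96 and 7.14 CPM in IP against 3.14, 1.92, 2.02 and 2.24 CPM in Input, all IP libraries above all Inputs, and a log2 fold change of 1.53 ± 0.52 that was not called (edgeR adjusted p = 0.118), but was called at 1.79 without IP 1 (edgeR adjusted p = 0.0395). Slc18a3 lies within an intron of the choline acetyltransferase gene.

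Metal carriers held no call over all libraries. Leaving out IP 1 gave 3 called higher (Slc31a1 at 0.80, Slc39a6 at 0.77 and Slc39a12 at 1.14) and 2 called lower (Slc30a4 at -0.64 and Slc30a9 at -0.63). All 9 Slc30 carriers, which move zinc (and, for Slc30a10, manganese) out of the cytosol, had a log2 fold below 0, with a median of -0.50 beside 0.06 over all genes tested. Slc30a4 had 25.5, 35.3 and 34.5 CPM in IP against 52.2, 57.8, 53.0 and 54.1 CPM in Input, with no overlap (log2 fold change -0.77 ± 0.22, edgeR adjusted p = 0.0683). Slc30a9 and Slc30a10 also lay below every Input without being called. Of 11 Slc39 carriers, which bring zinc and other metals into the cytosol, 3 lay above 0 and 8 below, with a median of -0.18. Slc39a6 had 62.4, 72.2 and 62.4 CPM in IP against 51.0, 37.8, 36.4 and 32.7 CPM in Input, all IP above all Input (log2 fold change 0.73 ± 0.22, edgeR adjusted p = 0.0853). Slc48a1, a haem transporter of endosomes and the class's highest per kb, had 54.8, 64.9 and 113 CPM in IP against 105, 109.8, 103 and 133 CPM in Input. Its groups overlapped through IP 4, and it was not called (log2 fold change -0.53 ± 0.27). The genes of these families were singled out after their values were seen, Slc30a4 and Slc48a1 apart.

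**Figure D5:**
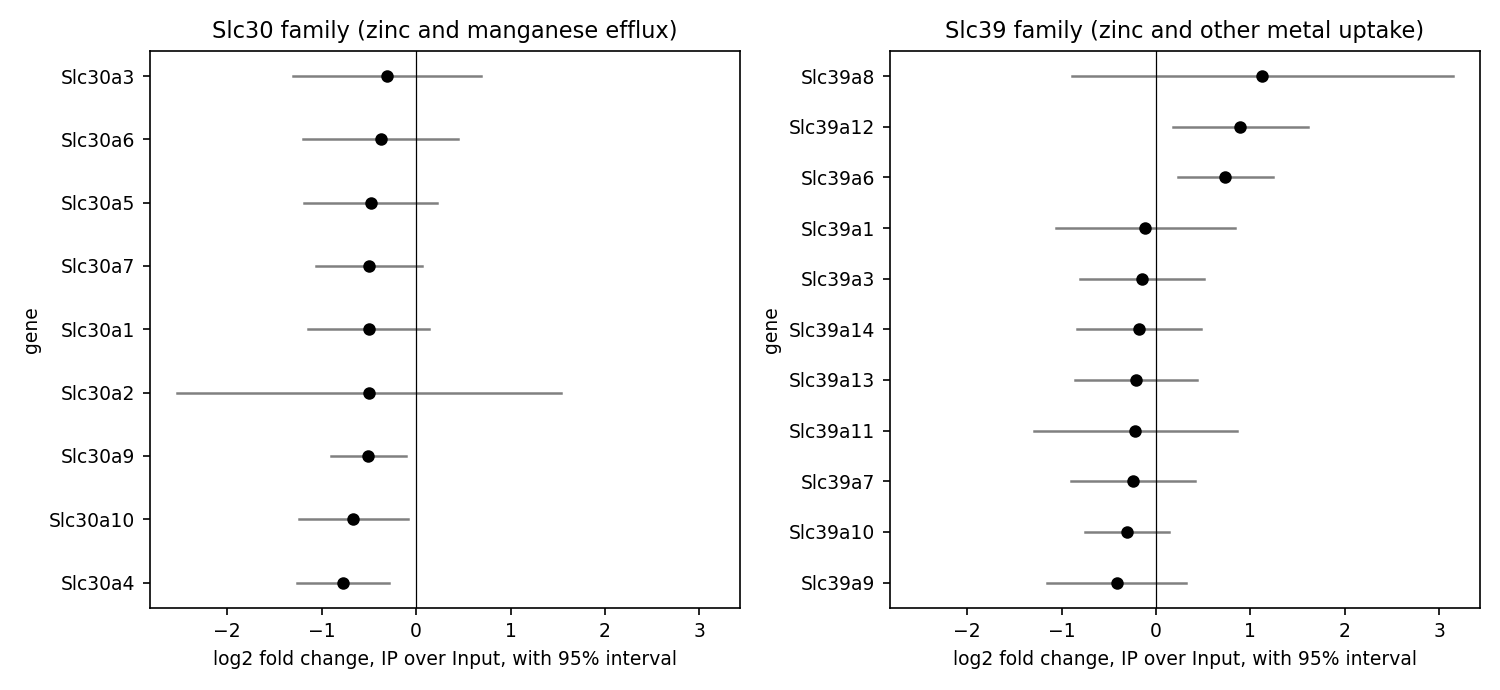
Log2 fold change, IP over Input, with its 95% interval for the 9 Slc30 carriers (left) and the 11 Slc39 carriers (right). All Slc30 points lie below 0, with medians of -0.50 for Slc30 and -0.18 for Slc39. None of the 20 was called over all 7 libraries, which these values use.

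The summed level of the sodium/proton and sodium/calcium exchangers was 1419, 1461 and 1643 CPM in IP and 2140, 2088, 2013 and 2048 CPM in Input, with no overlap. Much of that sum is Slc24a2, the potassium-dependent exchanger NCKX2 of neurons, and Slc8a1. Slc24a2 had 514, 648 and 760.5 CPM in IP against 892, 948, 921 and 987 CPM in Input, every IP below every Input, with a log2 fold change of -0.55 ± 0.18 (edgeR adjusted p = 0.108). In the fit without IP 1 it was called lower at -0.41 (edgeR adjusted p = 0.0413). Of the relatives of Slc8a1, Slc8a3 had 40.2, 44.4 and 42.2 CPM in IP against 87.1, 58.4, 66.9 and 52.9 CPM in Input (log2 fold change -0.65 ± 0.23), and Slc8a2 had 66.6, 49.8 and 72.9 CPM in IP against 68.4, 48.6, 66.9 and 65.5 CPM in Input (0.02 ± 0.23). Neither was called. The summed level of the neuron markers also lay below every Input in all 3 IP libraries. Among the IP libraries it was highest in IP 1, where the summed level of the exchangers was lowest. The part of neuronal RNA in the result was not tested.

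In the class of bicarbonate, chloride and other anions the smallest p was that of Slc12a4, with 7.29, 9.03 and 7.08 CPM in IP against 3.29, 3.22, 2.24 and 3.19 CPM in Input. The groups were well apart, but the log2 fold change of 1.38 ± 0.45 missed the threshold (edgeR adjusted p = 0.0997), and 361 bases of its exons overlap a gene model on the other strand. Slc12a5, the neuronal chloride extruder KCC2, had 375, 249 and 373 CPM in IP against 299, 299, 251 and 281 CPM in Input, with overlapping groups (log2 fold change 0.23 ± 0.19). Slc12a2 (NKCC1) and Slc4a4 (the sodium bicarbonate cotransporter NBCe1), both used in cerebrospinal fluid secretion or acid-base balance, were at -0.16 ± 0.24 and -0.20 ± 0.25 on the log2 scale, and their 95% intervals ran from -0.70 to 0.37 and from -0.75 to 0.35.

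Sugar carriers had the lowest class median, -0.32, without a call. Slc2a3 (GLUT3) had 157, 165 and 178 CPM in IP against 232, 291, 277 and 211 CPM in Input, all IP below all Input (log2 fold change -0.60 ± 0.18, edgeR adjusted p = 0.0872). Slc45a4 lay above every Input without being called, with 26.9, 33.6 and 36.9 CPM in IP against 15.4, 14.8, 14.5 and 23.3 CPM in Input (log2 fold change 0.93 ± 0.28, edgeR adjusted p = 0.0818). With IP 1 left out both were called, Slc2a3 lower at -0.56 (edgeR adjusted p = 0.0277) and Slc45a4 higher at 1.05 (edgeR adjusted p = 0.0172). Among the organic ion carriers Slc22a17, a receptor for siderophore-binding lipocalin, had the highest level per kb, and its 208, 219 and 221 CPM in IP lay just above the 173, 174, 200.3 and 174 CPM in Input (log2 fold change 0.26 ± 0.16, not called). Slc22a8, organic anion transporter 3 of the blood-brain barrier and choroid plexus, had 9.45, 42.9 and 19.0 CPM in IP against 4.12, 2.44, 15.4 and 2.24 CPM in Input, where Input 3 reached into the IP range (log2 fold change 1.98 ± 0.75, edgeR adjusted p = 0.154). Chosen after its values were seen, it was called at 2.36 when IP 1 was left out (edgeR adjusted p = 0.0399).

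The classes of vitamins, phosphate, nucleotide sugars and nucleosides held no call. The ascorbate transporter Slc23a2 had a log2 fold change of 0.02 ± 0.25 and the thiamine transporter Slc19a2 one of -0.37 ± 0.28. Slc37a3 lay below every Input with 26.4, 28.6 and 29.2 CPM in IP against 42.0, 45.2, 58.9 and 36.5 CPM in Input (log2 fold change -0.70 ± 0.24, edgeR adjusted p = 0.12). The phosphate transporter Slc20a1 was at -0.38 ± 0.32, and without IP 1 it was called lower at -0.94 (edgeR adjusted p = 0.00321). Of the Golgi nucleotide sugar family, the UDP-galactose transporter Slc35a2 was at 0.54 ± 0.32 with all IP libraries above all Inputs, and Slc35a4 at 0.46 ± 0.30, called higher at 0.72 without IP 1 (edgeR adjusted p = 0.0436). All 4 nucleoside transporters had folds between -0.34 and -0.02, with Slc29a4, the plasma membrane monoamine transporter, the lowest at -0.34 ± 0.38. In the lipid class, which holds the calls of Slc44a2 and Slc27a1, the choline transporter-like protein Slc44a1 had the highest level per kb and was at -0.42 ± 0.24.

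The carriers were also read by the cell type they are known from, using a list drawn up by hand. Unless said otherwise, only listed carriers among the 213 are counted. The whole list held 9 carriers for brain endothelium, 9 for choroid plexus, 3 for oligodendrocytes and 5 for microglia and macrophages. The 12 neuronal carriers had a median log2 fold change of -0.08 and none was called. Their sum was 2310, 2162 and 2709 CPM in IP 1, IP 3 and IP 4 against 2508 to 2766 CPM in Input, so that IP 4 lay inside the Input range. Slc24a2 (above) and Slc6a17, a synaptic vesicle amino acid transporter at 293, 321 and 501 CPM in IP against 312, 342, 285 and 292 CPM in Input, were the most abundant. The 8 astrocyte carriers had a median of 0.84, with 6 above 0 and 1 called, Slc25a18, and their sum was 503, 877 and 738 CPM in IP against 450.1 to 568 CPM in Input. The most abundant of these, Slc4a4 and the GABA transporter Slc6a11, were not called, and Slc6a11 had a log2 fold change of 0.30 ± 0.27. The 7 carriers of brain endothelium that met the count rule all lay above 0 with a median of 0.40 and none called. They were led by Slc3a2 (0.57 ± 0.29) and Slc7a5 (0.27 ± 0.28), which together form the large neutral amino acid transporter. Slc38a5 and Slc19a3, listed for endothelium but under the count rule, were at -0.73 and 3.60. Neither was called, and each was at 0 in some library. The sum of the 7 was 141, 243 and 256 CPM in IP 1, IP 3 and IP 4 against 139 to 170.1 CPM in Input, so that IP 1 lay inside the Input range. The endothelium marker sum, most of it Slc2a1, was above every Input in IP 3 and IP 4 and inside the Input range in IP 1. The median log2 fold change of these markers was -0.07, and their part in this was not tested. Without IP 1 Slc3a2 was called at 0.83 (edgeR adjusted p = 0.0128). The 6 carriers of choroid plexus epithelium had a median of 0.26 and no call, led by Slc12a2 and the copper transporter Slc31a1 (0.36 ± 0.46). Over all 9 listed for choroid plexus the median was 0.54, again without a call. The 2 oligodendrocyte carriers, Slc44a1 and Slc45a3, lay below 0, as did the median of the oligodendrocyte markers, and the 2 of microglia and macrophages, Slc37a2 and the fructose transporter Slc2a5, lay on either side of it at very low levels. Over all 5 listed for microglia and macrophages the median was 1.56, with none called and some at 0 in a library.

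At the edge of the count rule, the carriers with the smallest counts inside it were Slc1a5 and Slc25a21, with at least 10 counts in each library, and Slc16a10, with at least 12. None of these was called over all libraries, and without IP 1 Slc1a5 was called at 2.51, besides Slc25a21 (above). Just outside were Slc26a6, Slc38a11 and Slc9a3, each with 8 counts in their lowest library. A rule on the mean count instead would add 50 symbols, and with it 6 carriers were called higher and 3 lower. The added call was Slc6a19, a neutral amino acid transporter known from kidney and gut, with 0.360, 4.38 and 7.04 CPM in IP against 0.0491, 0.179, 0.218 and 0.0246 CPM in Input (edgeR adjusted p = 0.0417). Its Inputs 1 and 4 lay under the level of 3 counts. It met the mean rule through IP 3 and IP 4, where it was high, so this added call follows in part from how the rule selects.

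Of the 8 carriers left out by name, 4 were called higher in the same test, beside 3.64% of all genes tested. Their log2 folds were 4.03 for Slc6a13, 3.71 for Slc22a6, 2.35 for Slc13a4 and 1.63 for Slc2a1. All 8 are also on the cell type marker lists above. Slc6a13, Slc22a6 and Slc13a4 are among the fibroblast markers called higher there and Slc2a1 among the endothelium markers, so these are not separate observations. Slc1a3 (0.73), Slc1a2 (-0.60) and Slc4a5 (-0.19) were not called, and Slc47a1 was at 0 in IP 3, IP 4 and Input 4. Slc13a3 and Slc13a4 thus belong to 1 family and were both called higher. Other genes of membrane transport were read from a list of 87, of which 82 were tested: 3 were called higher and 2 lower, or 6.10%, with a median log2 fold change of -0.06. Among those higher were the ABC transporter Abcc1 (1.38 ± 0.24, edgeR adjusted p = 0.0172) and the mitochondrial uncoupling protein gene Ucp2 (1.94 ± 0.47, edgeR adjusted p = 0.0428). Lower were the phosphate exporter Xpr1 (-0.76 ± 0.17, edgeR adjusted p = 0.0328) and Car10, a carbonic anhydrase-related protein without enzyme activity (-0.88 ± 0.22, edgeR adjusted p = 0.0435). None of these 5 calls was made with the replicate number as a block.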

How the data were processed

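RNA-seq was read from 7 libraries, 3 IP and 4 Input. The authors deposited 1 table of raw counts for each library, with gene symbols and no normalisation. The tools named in the submitters' processing notes are STAR 2.0.0e and HTSeq, and the build is mm10. The sources used here do not give settings, annotation, kit or strand, so reads of overlapping or antisense genes cannot be told apart (65 of the 213 carriers share exon bases with another gene model, 7 of them over 25% of their exon bases). Lines that name no gene (40.1% to 52.1% of the counts in all lines) entered neither library sizes nor tests.

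With edgeR 4.0.16 (R 4.3.3), filterByExpr at a minimum count of 10 and a minimum total of 15 left 17375 genes, and TMM factors were applied. The comparison of IP with Input used the robust quasi-likelihood test, without covariates. Benjamini-Hochberg adjustment ran over all tested genes, and a gene was called at an adjusted p under 0.05. The SE is the log2 fold change over the root of the test statistic. Levels given for 3 counts cover counting error only. The test was first run on simulated counts with known changes. These held no IP library that stood apart and no pairing by number, so that run does not cover these features of the data. Positions and exon lengths are from GENCODE M21 (GRCm38, the assembly of mm10), 1-based, and promoters from RefSeq (GRCm38.p6), where 166 carriers matched by symbol.

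The members, the substrate classes and all gene lists were chosen with earlier results of these data known. Named genes were every called carrier, in each class the one with the smallest p and the one with the highest level per kb, the 3 nearest to the count rule on either side, 2 per cell type and the 8 left out. Some genes under this rule are not reported here. Others are marked in the text as chosen after their values were seen, which holds also for the relatives of called carriers and for those listed only for non-overlapping groups.

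Replicate numbers were taken to pair libraries because the labels put the IP and Input of a number on the same lane (numbers 1, 3 and 4 on lanes 4, 2 and 3). The deviations from the group means of an IP and its same-numbered Input correlated across genes at 0.0374, 0.0684 and 0.0396, and no other Input gave a higher value. These values are small, and libraries of the same number share a lane. Pairing by tissue and by lane therefore cannot be told apart. Alternatives were RLE size factors, total counts, DESeq2 1.42.0, limma-voom (limma 3.58.1), no filter on low counts, the replicate block, each library left out, and a rule on mean counts.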

Additional observations from a re-analysis of the deposited data

Results flagged for a closer look

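Among 42 named carriers, 1 Input library lay apart from the other 3 for 6, by the gap to its nearest neighbour relative to the whole range (Dixon's criterion, which chance meets in about 1 in 20 groups). Input 2 was low for Slc44a2 (19.1 CPM), the called choline transporter-like gene, and for the monoamine transporter Slc29a4 (10.8 CPM). Input 3 was low for the cotransporter Slc12a4 (2.24 CPM) and high for the lipocalin receptor Slc22a17 (200.3 CPM). Input 4 was high for Slc35a4 (60.0 CPM) and for Slc45a4 (23.3 CPM). Of these, Slc44a2 alone was called over all libraries. Without Input 2, the log2 fold of Slc44a2 was 0.90 and the gene was not called (edgeR adjusted p = 0.117). The loss of the call was not particular to Input 2. Slc44a2 was not called without Input 1, Input 3 or Input 4 either, at log2 folds of 1.05, 1.05 and 1.06.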

How the results depend on the processing

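The 5 carriers called higher and 3 called lower were called under RLE size factors and total counts as well. The count of carriers called higher was 14 with DESeq2, 0 with limma-voom, 3 without the filter on low counts and 0 with the replicate block, and between 0 and 26 with 1 library left out. The count called lower was 7, 1, 3 and 0 under the same settings, and between 0 and 20 with 1 library left out. Classes with a call numbered 6, and 10 with DESeq2, 1 with limma-voom, 0 with the replicate block and 0 to 12 with 1 library left out. Of the related transport genes, 3 were called higher, against 7 with DESeq2, 1 with limma-voom, 2 without the filter, 0 with the replicate block and 0 to 14 with 1 library left out. Lower were 2, against 0 with total counts, 5 with DESeq2, 1 with limma-voom, 1 without the filter, 0 with the replicate block and 0 to 9 with 1 library left out. The upper ends came without IP 1. The share over all genes was given above only for the main fit, the replicate block, DESeq2, limma-voom and the fit without IP 1. The causes were not tested.

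No called carrier changed sign under any of the 13 settings. Their IP and Input libraries do not overlap, so leaving out a library could hardly change the sign, and nothing is concluded from this. Carriers near 0 that were not called did change sign. Slc23a2 had log2 fold changes of -0.015 with limma-voom, -0.22 without IP 4, -0.0040 without Input 1 and -0.096 without Input 3, with 0.22 at the upper end. Slc25a4 was at -0.070 without IP 1 and -0.046 without Input 4, with 0.062 at the upper end. Slc31a1 was at -0.033 with the replicate block and -0.18 without IP 3, with 0.80 at the upper end. Without IP 4, Slc6a11, Slc6a17 and Slc7a5 were at -0.019, -0.0025 and -0.11, with 0.55, 0.42 and 0.43 at the upper end with 1 library left out. With 3 IP libraries, of which 1 stood apart, the 95% interval reached beyond 1 on the log2 scale for 134 of the 213 carriers, called ones included. For those of them that were not called, a difference of that size is not excluded.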
